A study of Mus musculus with 6 samples.

Results

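The troponin family is described here by its 8 genes: Tnnc1, Tnnc2, Tnni1, Tnni2, Tnni3, Tnnt1, Tnnt2 and Tnnt3. They were taken by gene symbol, after matching the NCBI gene numbers of the deposited table to RefSeq symbols. The 8 genes stood among 17558 genes in the table, and their transcripts were 71 of 57920 transcript rows. RNA sequencing was done on C2C12 cells, a mouse myoblast line that forms myotubes when serum is withdrawn. All cells had spent 48 h in differentiation conditions and all carried a stable short hairpin RNA (shRNA). The controls, shScr, carried a scrambled non-targeting hairpin, and the 2 other groups carried hairpins directed at Pkm1 (shPkm1) or Pkm2 (shPkm2), with 2 libraries in each of the 3 groups. The comparison addresses the part of each pyruvate kinase isoform in myoblast differentiation. The labels do not say whether libraries of a group came from separate cultures, so p-values measure the spread between these libraries, which may be technical. In these bulk libraries, fewer cells expressing a gene and less of its RNA per cell cannot be told apart.

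Troponin is the calcium switch of striated muscle and sits on the actin thin filament with tropomyosin. Troponin C binds calcium, troponin I holds back the interaction of actin with myosin, and troponin T ties the complex to tropomyosin. Each subunit has paralogues with typical fibre types. Tnnc1 encodes the slow skeletal and cardiac troponin C and Tnnc2 the fast skeletal form. Tnni1, Tnni2 and Tnni3 encode the slow skeletal, fast skeletal and cardiac troponin I. Tnnt1, Tnnt3 and Tnnt2 encode the slow skeletal, fast skeletal and cardiac troponin T, and Tnnt2 and Tnni1 are also known from embryonic and newly formed skeletal muscle.

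The sequences shown first are exons and promoters that the results below refer to. Troponin T genes are known for their alternative splicing, and 3 of their exons follow, read 5′ to 3′ on the gene's strand from the mouse genome build GRCm38. The Tnnt1 exon has 33 bases at chr7:4513581-4513613. The 2 Tnnt3 exons are a mutually exclusive pair of 41 bases each, at chr7:142513665-142513705 and chr7:142514326-142514366. Capitals mark the 23 of 41 positions at which the pair differs, and the Tnnt1 exon has none.
Tnnt1 33-base exon: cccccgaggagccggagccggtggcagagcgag
Tnnt3 first exon of the pair: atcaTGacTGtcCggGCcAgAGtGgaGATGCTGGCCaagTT
Tnnt3 second exon of the pair: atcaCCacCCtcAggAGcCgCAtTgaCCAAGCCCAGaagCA

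Promoters are shown for 3 members: Tnnc1, the most abundant member in shScr, Tnnt2, the most abundant troponin T, and Tnni3, the gene whose level differed most from the rest. Each line holds the 250 bases before a transcript start listed by RefSeq, on the gene's strand (GRCm38.p6), with E-boxes (CANNTG, a motif bound by myogenic basic helix-loop-helix factors, searched on both strands) in capitals. They lie at chr14:31208062-31208311 for Tnnc1, chr1:135836084-135836333 for Tnnt2 and chr7:4522529-4522778 for Tnni3, the last on the minus strand. The listed start can lie inside the full span of the gene, so that 190 bases of the Tnni3 window and 19 of the Tnnt2 window fall within the span given further on.
Tnnc1: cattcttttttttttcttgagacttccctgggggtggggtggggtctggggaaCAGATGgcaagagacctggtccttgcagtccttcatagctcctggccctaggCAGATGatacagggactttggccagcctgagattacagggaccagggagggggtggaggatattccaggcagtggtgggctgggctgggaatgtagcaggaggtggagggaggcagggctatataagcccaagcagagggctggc
Tnnt2: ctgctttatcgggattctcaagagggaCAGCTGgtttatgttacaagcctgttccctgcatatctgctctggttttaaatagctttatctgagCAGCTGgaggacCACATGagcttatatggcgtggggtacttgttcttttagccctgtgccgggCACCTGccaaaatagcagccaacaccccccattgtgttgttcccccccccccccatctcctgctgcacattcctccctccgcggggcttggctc
Tnni3: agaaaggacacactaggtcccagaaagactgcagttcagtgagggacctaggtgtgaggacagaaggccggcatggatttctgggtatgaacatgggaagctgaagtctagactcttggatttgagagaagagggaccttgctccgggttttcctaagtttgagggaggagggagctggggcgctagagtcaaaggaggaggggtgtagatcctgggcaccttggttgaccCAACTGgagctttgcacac

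Libraries held between 18216896 and 19796036 estimated counts. The labels were checked on Pkm, whose 2 messenger RNAs share most exons. The Pkm1 isoform was listed at 546 and 589 TPM (a level scaled for transcript length and library size) in shScr, at 243 and 218 in shPkm1, and at 254 and 254 under the shPkm2 label. The Pkm2 isoform was listed at 1073 and 1517 TPM in shScr, 1278 and 1379 in shPkm1, and 2700 and 2630 under the shPkm2 label. In the edgeR fit of transcript counts described below, the Pkm2 isoform had a log2 fold change of 0.63 against shScr under the shPkm2 label, which was not called (adjusted p = 0.0656), and of -0.31 in shPkm1 (adjusted p = 0.322), whereas the Pkm1 isoform was lower in both. Its values were -1.66 in shPkm1 (adjusted p = 0.00272) and -1.58 under the shPkm2 label (adjusted p = 0.00124). Counts of the whole Pkm gene fell by 0.63 in shPkm1 (adjusted p = 0.00107) and had 0.20 under the shPkm2 label (adjusted p = 0.198). Against shPkm1, the Pkm2 isoform was called higher under the shPkm2 label (0.93, adjusted p = 0.0390). It was thus higher in TPM and not called lower in counts under the shPkm2 label, which goes against that label, and every direction given for those libraries below refers to the label alone. The 8 markers of myoblasts and myotubes were all lower in both hairpin groups, with a summed level of 10835 to 11940 TPM in shScr, 6198 to 6466 in shPkm1 and 1069 to 1146 under the shPkm2 label. The 5 fibroblast markers summed to 373 to 385 TPM in shScr, 2600 to 2641 in shPkm1 and 63.9 to 70.5 under the shPkm2 label, with 1 of the 5 at or under 3 counts in all libraries. Col1a1, a fibrillar collagen, made up most of these sums, at 359 and 362, 2585 and 2552, and 50.5 and 43.2 TPM. Of the 5, 3 were called higher in shPkm1, and 1 higher and 2 lower under the shPkm2 label, the higher one being Pdgfra at 10.2 and 9.47 TPM against 1.02 and 1.61 in shScr. The 5 smooth muscle markers summed to 7232 to 9585 TPM in shScr, 5493 to 5740 in shPkm1 and 2628 to 2640 under the shPkm2 label, nearly all of it Acta2, with 2 of the 5 called higher and 1 lower in shPkm1 and 1 higher and 3 lower under the shPkm2 label. Heart muscle markers summed to 36.2 to 41.5, 15.7 to 17.2 and 26.6 to 28.3 TPM in the same order, over 4 markers, of which Myl7 was listed at 0 in all libraries. The part of these marker levels in the troponin results was not tested.

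The 8 genes together made up 2.58% and 1.91% of all TPM in shScr, 0.836% and 0.914% in shPkm1, and 0.0278% and 0.0267% under the shPkm2 label. All 8 genes fell in shPkm1 and all 8 under the shPkm2 label, both against shScr, by edgeR's quasi-likelihood test on gene counts with Benjamini-Hochberg adjustment over 12643 genes at a threshold of 0.05. Of all genes tested, 31.4% were called lower in shPkm1 and 34.2% under the shPkm2 label. The median log2 fold change of the 8 genes was -1.89 in shPkm1 and -7.35 under the shPkm2 label, beside 0.00 and 0.01 for all genes tested. Between the hairpin groups, 7 of the 8 genes were lower under the shPkm2 label than in shPkm1, where 27.3% of all genes were called lower. Both comparisons with shScr use the same control libraries. Counts per library did not overlap, with the hairpin group lower, in 8 genes in shPkm1 (40.3% of all genes) and 8 under the shPkm2 label (41.7%), and in 7 genes between the hairpin groups (39.6%). Fold changes are on counts scaled by TMM, and library totals alone put the median of all genes at 0.19 in shPkm1 and 0.33 under the shPkm2 label, so ratios of TPM are smaller than these folds. On library totals, 2656 of all genes were called lower and 5116 higher in shPkm1 (3966 and 4018 with TMM), 2702 lower and 6095 higher under the shPkm2 label (4319 and 4283), and 2699 lower and 4280 higher between the hairpin groups (3457 and 3246), while the calls of the 8 troponin genes stayed as they were.

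**Figure D1:**
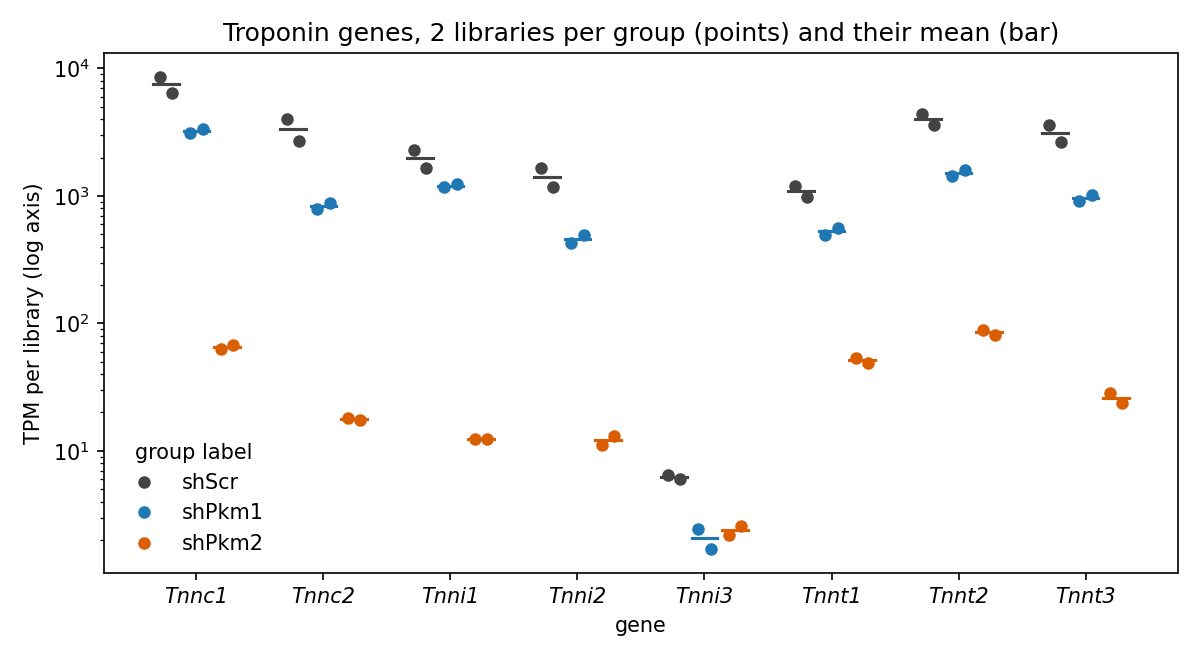
TPM of each troponin gene (log axis) in the 2 libraries of each group (points), with the group mean as a bar. In 7 genes the 3 groups are separate, with shScr highest and shPkm2 lowest, and Tnni3 lies between 1.70 and 6.52 TPM in all 6 libraries.

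Tnnc1, whose product has a single regulatory calcium site in slow and cardiac muscle, was the most abundant member in shScr. It was listed at 8623 and 6417 TPM in shScr, 3124 and 3335 in shPkm1, and 62.8 and 68.0 under the shPkm2 label. The 3 groups did not overlap, and the gene ranked 10th and 14th of all genes by TPM in the shScr libraries but 2275th and 2044th in those labelled shPkm2. Its counts had log2 fold changes of -1.62 in shPkm1 (SE 0.178, adjusted p = 4.76e-06) and -7.32 under the shPkm2 label (SE 0.232, adjusted p = 2.21e-11). These are 3.08-fold (95% interval of the fit 2.42 to 3.92) and 159-fold (116 to 218) lower counts. Tnnc2, the fast skeletal troponin C, was listed at 3977 and 2681 TPM in shScr, 796 and 883 in shPkm1, and 18.03 and 17.59 under the shPkm2 label. Again no group overlapped another. Tnnc2 had the most negative fitted change of the 8 genes in both comparisons with shScr, with log2 fold changes of -2.39 in shPkm1 (SE 0.196, adjusted p = 3.46e-07) and -8.02 under the shPkm2 label (SE 0.265, adjusted p = 3.09e-11). The latter is 260-fold lower (181 to 373). Tnnc1 held a larger share of troponin C TPM in both hairpin groups, 69.5% ± 1.48 (SD, n = 2) in shScr, 79.4% ± 0.454 in shPkm1 and 78.6% ± 1.26 under the shPkm2 label. The library values of the last 2 overlapped.

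Among the inhibitory subunits, Tnni1 and Tnni2 both fell in both hairpin groups and were lowest under the shPkm2 label. Tnni1, the slow skeletal form, was listed at 2289 and 1643 TPM in shScr, 1171 and 1242 in shPkm1, and 12.4 and 12.5 under the shPkm2 label. Its log2 fold change in shPkm1 was -1.11 (SE 0.172, adjusted p = 9.64e-05), the least negative of the 8 genes. Under the shPkm2 label it was -7.77 (SE 0.239, adjusted p = 1.65e-11), second to Tnnc2. Between the hairpin groups Tnni1 had the most negative value of the family, -6.66 (SE 0.230, adjusted p = 9.58e-11), 101-fold lower under the shPkm2 label. Tnni2, the fast skeletal form, was listed at 1656 and 1168 TPM in shScr, 430 and 494 in shPkm1, and 11.16 and 12.97 under the shPkm2 label. Tnni2 had log2 fold changes of -2.02 in shPkm1 (SE 0.189, adjusted p = 1.12e-06) and -7.46 under the shPkm2 label (SE 0.258, adjusted p = 4.64e-11). All 3 groups were separate for both genes. In shPkm1 the 2.16-fold change of Tnni1 (1.71 to 2.73) and the 4.06-fold change of Tnni2 (3.14 to 5.25) had intervals that do not meet, and under the shPkm2 label the intervals of the 2 genes overlapped.

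Tnni3, the cardiac troponin I, was the scarce member of the family in these cells. It was listed at 6.52 and 6.02 TPM in shScr, 2.46 and 1.70 in shPkm1, and 2.19 and 2.59 under the shPkm2 label. These levels rest on 61 and 57, 19 and 15, and 20 and 24 estimated counts, against 67176 and 49009 for Tnnc1 in shScr. Both hairpin groups lay below shScr and overlapped each other. Tnni3 fell by 1.99 on the log2 scale in shPkm1 (SE 0.307, adjusted p = 9.30e-05) and by 1.76 under the shPkm2 label (SE 0.295, adjusted p = 1.46e-04). The hairpin groups differed by 0.24 on that scale (SE 0.350, adjusted p = 0.589), with a 95% interval of -0.45 to 0.92, so this is the member for which no difference between them was called. Tnni3 made up 8.87% ± 0.527 (SD, n = 2) of troponin I TPM under the shPkm2 label, against 0.189% ± 0.0344 in shScr and 0.126% ± 0.0393 in shPkm1.

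The tropomyosin-binding subunits followed the order Tnnt2, Tnnt3, Tnnt1 in shScr and shPkm1, and Tnnt2, Tnnt1, Tnnt3 under the shPkm2 label. Tnnt2, the cardiac and embryonic form, was listed at 4408 and 3585 TPM in shScr, 1442 and 1604 in shPkm1, and 89.5 and 80.7 under the shPkm2 label. It was the most abundant troponin gene in the last group. The log2 fold change of Tnnt2 was -1.79 in shPkm1 (SE 0.159, adjusted p = 7.22e-07), compared with -6.02 (SE 0.194, adjusted p = 2.51e-11) under the shPkm2 label. Tnnt3, the fast skeletal form, was listed at 3607 and 2641 TPM in shScr, 907 and 1013 in shPkm1, and 28.2 and 23.7 under the shPkm2 label. Its log2 fold changes were -2.10 (SE 0.180, adjusted p = 5.16e-07) and -7.39 (SE 0.234, adjusted p = 2.21e-11). Tnnt1, the slow skeletal form, was listed at 1201 and 986 TPM in shScr, 490 and 562 in shPkm1, and 54.0 and 49.3 under the shPkm2 label. Its log2 fold changes were -1.46 in shPkm1 (SE 0.145, adjusted p = 2.00e-06) and -4.82 under the shPkm2 label (SE 0.170, adjusted p = 5.39e-11). The 28.2-fold change of Tnnt1 in the latter (22.4 to 35.5), the 65.1-fold change of Tnnt2 (50.1 to 84.7) and the 167-fold change of Tnnt3 (122 to 230) have intervals that do not meet. The differences between genes were not tested themselves.

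**Figure D2:**
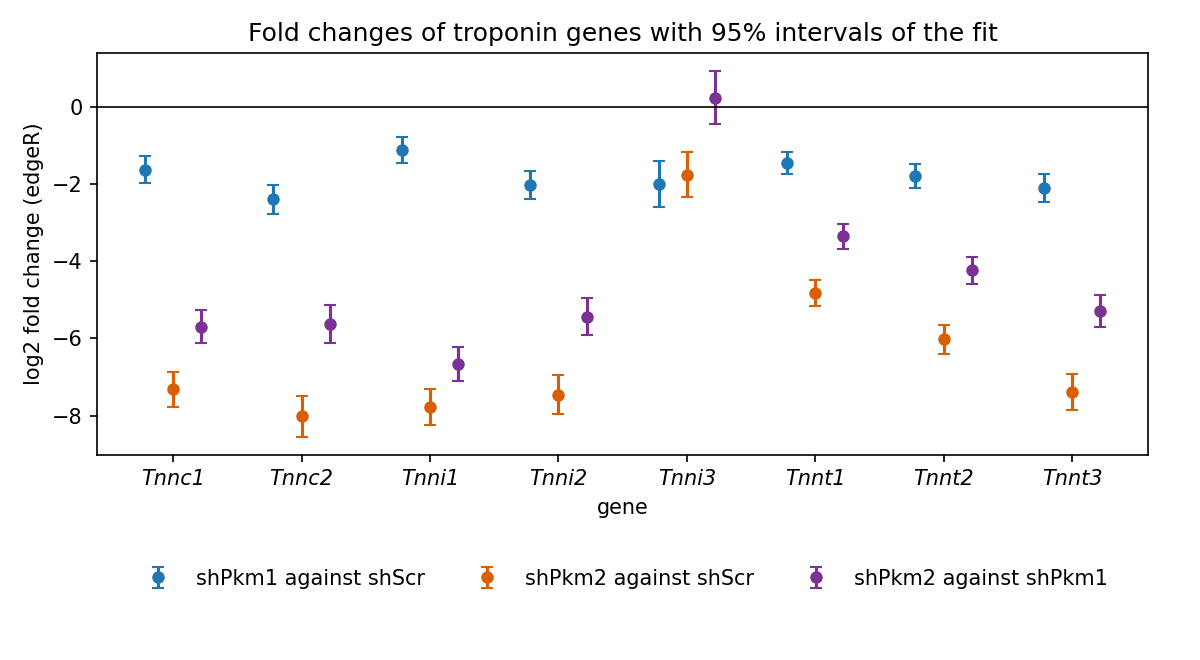
Log2 fold changes of the 8 troponin genes from the edgeR fit, with bars for the 95% interval, in the 3 comparisons between groups. The interval of Tnni3 between the hairpin groups spans 0 (-0.45 to 0.92), and the other 23 intervals lie below 0.

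Within a library the order of the 8 genes was the same in both shScr libraries: Tnnc1, Tnnt2, Tnnc2, Tnnt3, Tnni1, Tnni2, Tnnt1, Tnni3. Across the shScr libraries the ranges of Tnnt2 and Tnnc2, of Tnnt2 and Tnnt3, of Tnnc2 and Tnnt3, of Tnni1 and Tnni2, and of Tnni2 and Tnnt1 overlapped, although the order within each library was the same. In shPkm1 the order was Tnnc1, Tnnt2, Tnni1, Tnnt3, Tnnc2, Tnnt1, Tnni2, Tnni3, and only the neighbours Tnnt1 and Tnni2 overlapped. Under the shPkm2 label it was Tnnt2, Tnnc1, Tnnt1, Tnnt3, Tnnc2, Tnni1, Tnni2, Tnni3, and Tnni1 and Tnni2 changed places between the libraries.

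Ratios of fast to slow paralogues did not all move in one direction between the groups. The ratio of Tnnt3 to Tnnt1 was 3.00 and 2.68 in shScr, 1.85 and 1.80 in shPkm1, and 0.523 and 0.481 under the shPkm2 label. Tnnt1 thus made up 13.4% ± 0.456 (SD, n = 2) of troponin T TPM in shScr, 17.5% ± 0.309 in shPkm1 and 31.7% ± 0.453 under the shPkm2 label. Tnnt2 kept close to the same share, 48.8% ± 1.33, 50.6% ± 0.243 and 52.3% ± 0.270. In troponin I the ratio of Tnni2 to Tnni1 was 0.723 and 0.710 in shScr, 0.367 and 0.397 in shPkm1, and 0.898 and 1.04 under the shPkm2 label, so the fast form was relatively lowest in shPkm1. The ratio of Tnnc2 to Tnnc1 was 0.461 and 0.418 in shScr, 0.255 and 0.265 in shPkm1, and 0.287 and 0.259 under the shPkm2 label. Summed over paralogues, troponin T TPM stood to troponin I TPM at 2.33 and 2.56 in shScr, 1.77 and 1.83 in shPkm1, and 6.66 and 5.48 under the shPkm2 label. These shares and ratios were not tested.

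**Figure D3:**
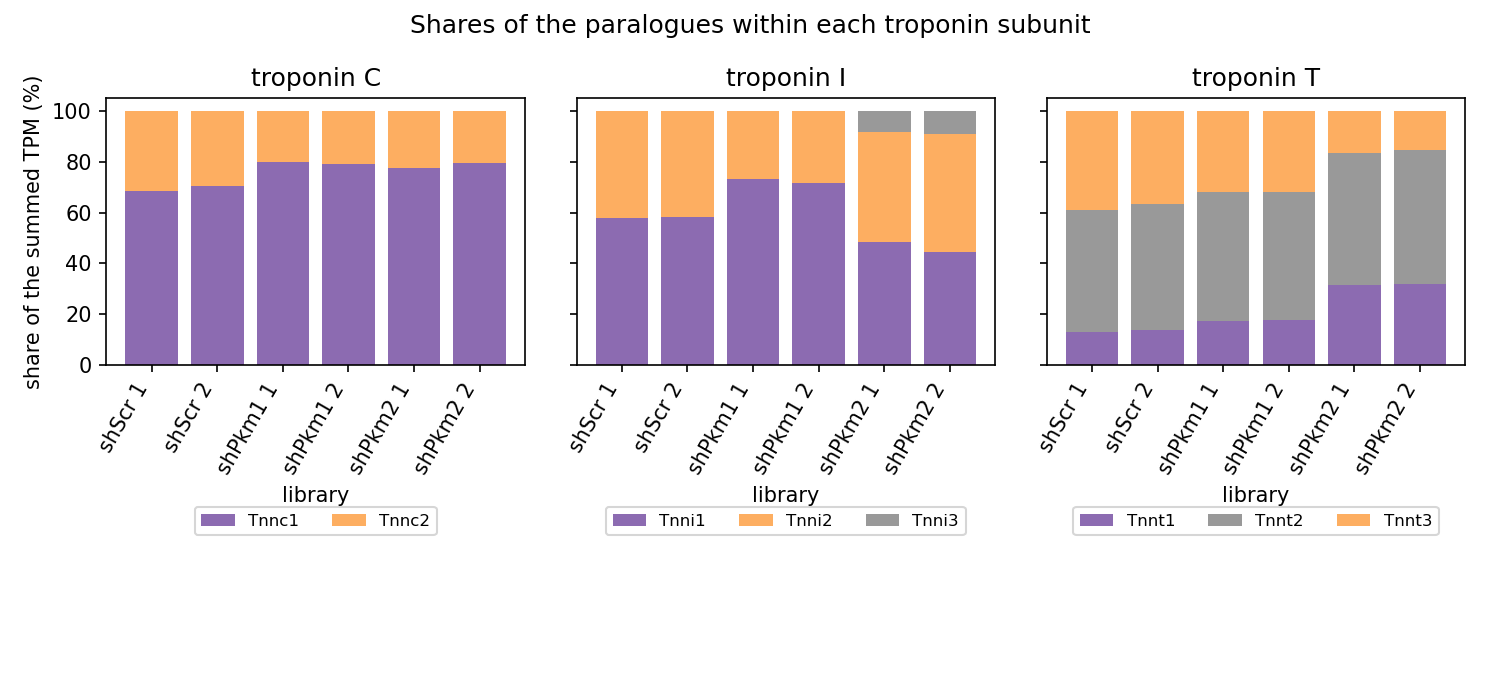
Share of each paralogue in the summed TPM of troponin C, troponin I and troponin T, as stacked bars for each of the 6 libraries. Tnnt1 averages 13.4% in shScr and 31.7% in shPkm2, while Tnnt2 stays between 47.8% and 52.5% in every library.

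Single transcripts were tested in the same way, over 33433 transcripts. Of the 71 troponin transcripts, 51 passed the filter on low counts, and 4 were listed at 0 in all libraries. In shPkm1, 25 of the 51 were called lower against shScr, where 5.36% of all transcripts were. Under the shPkm2 label, 40 were lower than in shScr (9.32% of all transcripts) and 36 lower than in shPkm1 (5.04%), and no troponin transcript was called higher in any of the 3 comparisons, nor had any a higher value at an unadjusted p under 0.05. The count of 25 depended on single libraries: it was 14 without shScr replicate 1, 0 without shPkm1 replicate 1 and 1 without shPkm1 replicate 2. The count of 36 was 20 without shPkm1 replicate 2. Tnnc1 and Tnnc2 each had 1 transcript, and NM_021467.5 held 92.1% or more of Tnni1 TPM in every library. Unlike the Tnni1 gene, NM_021467.5 was not called lower in shPkm1 against shScr (-1.08, adjusted p = 0.0515). None of the 3 tested Tnni1 transcripts was called there. The 1 tested Tnni3 transcript, NM_009406.3, was not called against shScr in shPkm1 (adjusted p = 0.163) or under the shPkm2 label (adjusted p = 0.119). Tnnt2 was carried mostly by NM_011619.3, which held 74.7% to 88.0% of its TPM.

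Use of isoforms, meaning the change of a transcript relative to the other transcripts of its gene, was tested with edgeR's diffSpliceDGE on 48 troponin transcripts. None was called in shPkm1 against shScr, where 0.411% of all transcripts were, and none in the 10 alternatives. At an unadjusted p under 0.05 there were 0, and no other tool was run on transcripts. Under the shPkm2 label, 4 were called against shScr (1.10% of all transcripts) and 2 against shPkm1 (0.526%), all in Tnnt1 and Tnnt2. The Tnnt1 transcript NM_001277903.1 held 30.2% and 28.2% of Tnnt1 TPM in shScr, 28.5% and 27.4% in shPkm1, and 13.3% and 7.91% under the shPkm2 label. Its use was lower in the last group than in shScr (adjusted p = 3.83e-04) and than in shPkm1 (adjusted p = 0.00134). Without shPkm2 replicate 2 neither call was kept (adjusted p = 0.0973 and 0.209). NM_011618.2 went from 30.2% and 28.0% in shScr to 16.8% and 13.2% (adjusted p = 0.0217), and XM_017322113.1 from 3.81% and 4.79% to 15.8% and 16.6% (adjusted p = 0.0391). These 2 calls were lost in every fit that left out a single library, with adjusted p between 0.0533 and 0.409 for the former and between 0.0710 and 0.514 for the latter.

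**Figure D4:**
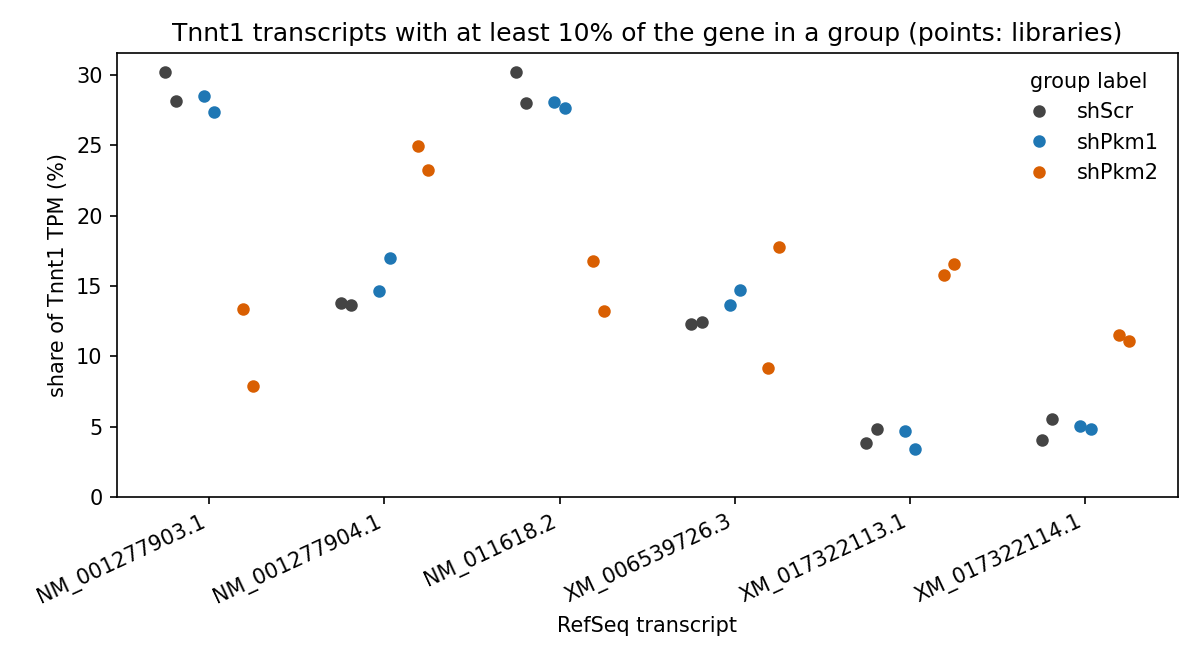
Share of Tnnt1 TPM held by each Tnnt1 transcript with at least 10% in any group, with 1 point per library. NM_001277903.1 and NM_011618.2 lie between 27.4% and 30.2% in shScr and shPkm1 and between 7.91% and 16.8% in shPkm2.

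The 33-base Tnnt1 exon printed above is part of NM_011618.2 and NM_001277903.1 and absent from NM_001277904.1, the 3 Tnnt1 transcripts that could be linked to annotated exons. Transcripts with the exon held 81.4% and 80.4% of the TPM of those 3 in shScr, 79.4% and 76.4% in shPkm1, and 54.7% and 47.6% under the shPkm2 label. The linked transcripts made up 69.8% to 74.2% of Tnnt1 TPM in shScr and 71.2% to 72.0% in shPkm1, but 55.1% and 44.4% under the shPkm2 label. In Tnnt3, 8 linked transcripts held 45.9% to 59.0% of the gene's TPM. The first exon of the printed pair belongs to NM_001163665.1 alone, which was listed at 0 in all 6 libraries, and the second to the other 7, so the linked Tnnt3 TPM carried the second exon in every group. A 39-base Tnnt3 exon at chr7:142507750-142507788 was in transcripts with 58.2% and 49.8% of the linked TPM in shScr, 57.6% and 57.4% in shPkm1, and 53.7% and 63.2% under the shPkm2 label, which overlap.

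The Tnnt2 transcript NM_001130174.2 was listed at 2628 and 1342 estimated counts in shScr, 1217 and 1204 in shPkm1, and 0 and 0 under the shPkm2 label. Against a floor of 3 counts per library its level was lower by a factor of at least 852 against shScr and of at least 442 against shPkm1, or of at least 533 against shScr replicate 2 alone. At its shScr share of Tnnt2, 39.0 and 36.7 counts would have been listed. Its use was called lower against shScr (adjusted p = 0.00234) and against shPkm1 (adjusted p = 3.83e-04), and both calls were kept in all 10 alternatives. A transcript estimate of 0 can be a failed assignment of reads shared with other transcripts of the gene.

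The 8 genes lie at 5 places in the genome (GRCm38.p6), 3 of which hold a troponin I and a troponin T gene. Tnni1 (chr1:135783033-135810989) and Tnnt2 (chr1:135836315-135852268) are 25325 bases apart. Tnni2 (chr7:142441816-142444410) and Tnnt3 (chr7:142498771-142516213) are 54360 bases apart, and Tnnt1 (chr7:4504569-4515975) and Tnni3 (chr7:4518305-4522718) 2329 bases. Prr33, annotated by RefSeq as a long non-coding RNA and not tested, overlaps Tnnt3. Tnnc1 (chr14:31208312-31211729) and Tnnc2 (chr2:164777161-164779734) stand alone. Under the shPkm2 label the closest pair had the widest gap between fitted values of the 3 pairs, with log2 fold changes of -4.82 for Tnnt1 and -1.76 for Tnni3, whereas in shPkm1 the gap was widest between Tnni1 (-1.11) and Tnnt2 (-1.79). Tnni2 and Tnnt3 had nearly equal values under the shPkm2 label, -7.46 and -7.39.

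Neighbouring genes, the 3 on either side of each place and those between a pair, came to 33, of which 21 were tested. In shPkm1, 3 were higher and 8 lower, with a median log2 fold change of -0.03. Of all genes, 31.8% were called higher and 31.4% lower there. Under the shPkm2 label, 2 were higher and 14 lower, with a median of -0.80, beside 33.9% higher and 34.2% lower of all genes. Lsp1, which lies between Tnni2 and Tnnt3 and encodes an actin-binding protein of leukocytes, was listed at 280 and 327 TPM in shScr, 252 and 252 in shPkm1, and 163 and 147 under the shPkm2 label. Its log2 fold changes of -0.64 (adjusted p = 9.43e-05) and -1.36 (adjusted p = 6.45e-08) were smaller in size than those of the troponin genes on both sides. Syt8, a synaptotagmin gene 1420 bases from Tnni2, rose in shPkm1 (0.79, adjusted p = 0.00974) and fell under the shPkm2 label (adjusted p = 2.48e-07), with 42 and 49 counts in shScr, 89 and 92 in shPkm1 and 1 and 1 in the last group. Ube2c, a ubiquitin-conjugating enzyme of mitotic exit next to Tnnc2, was listed at 89.0 and 118 TPM in shScr and 587 and 500 under the shPkm2 label (1.94, adjusted p = 9.35e-09). Dnaaf3, a dynein assembly factor 215 bases from Tnni3, also rose there (2.04, adjusted p = 9.10e-06). Among the other tested neighbours, the largest falls under that label were those of Igfn1 (-4.88), Sema3g (-3.695) and Lad1 (-3.65). Lad1 stood at 0.86 and 0.87 TPM in shScr. The neighbours named here were picked after their values were seen.

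**Figure D5:**
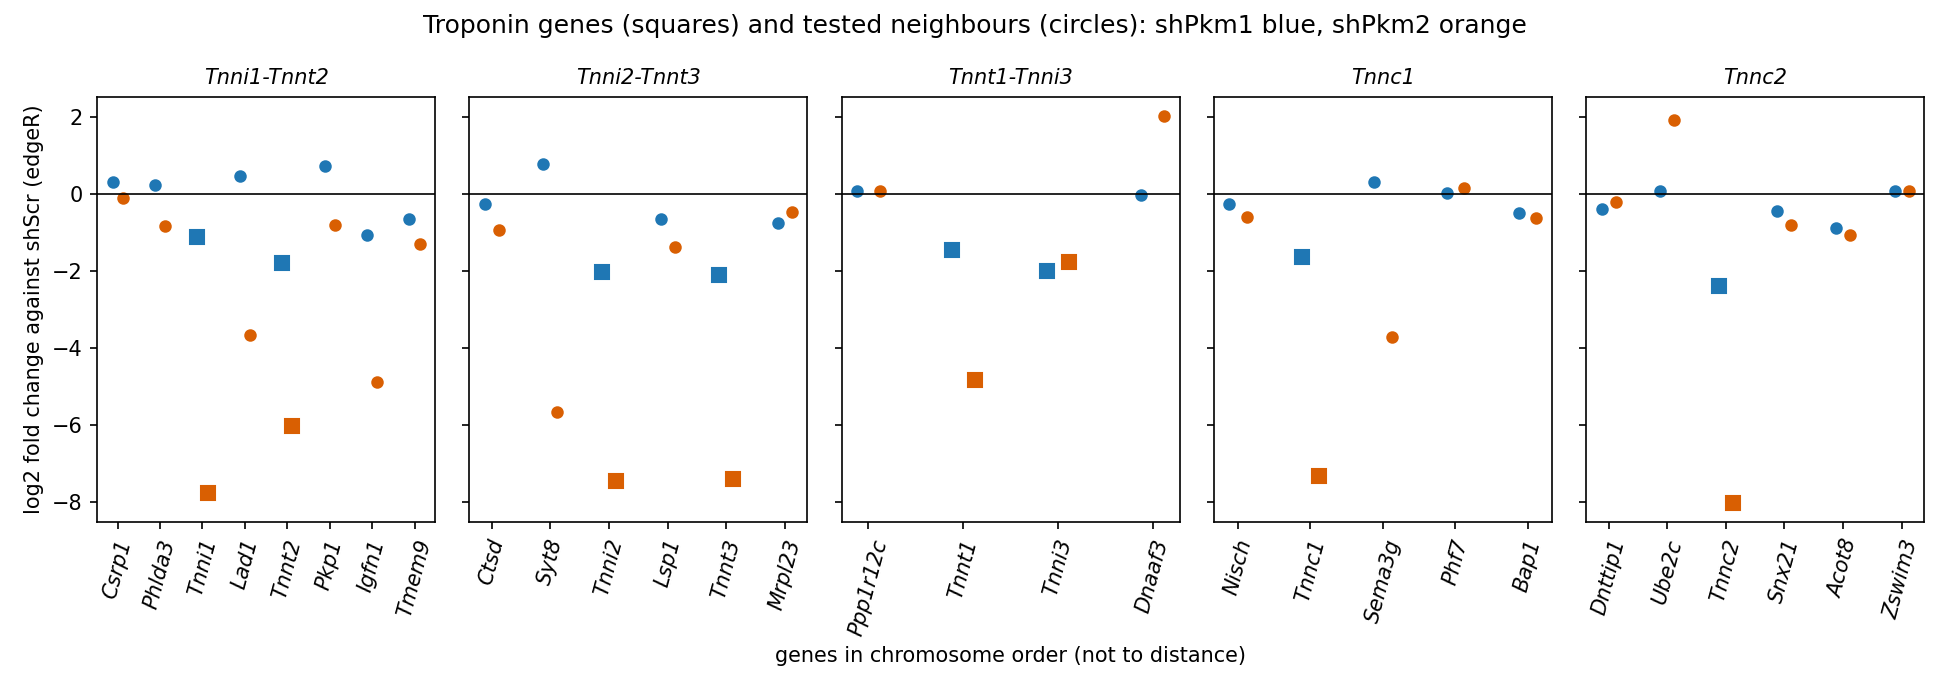
Log2 fold changes against shScr of troponin genes (squares) and tested neighbours (circles) at the 5 places, with genes in chromosome order and not to distance, in shPkm1 (blue) and shPkm2 (orange). Ube2c and Dnaaf3 lie near 2 in shPkm2, beside troponin genes at -8.02 and -1.76.

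RefSeq promoter entries were found for 6 of the 8 genes, all but Tnni2 and Tnnt3. In the 250 bases before the start, CANNTG was found 2 times in Tnnc1, 2 in Tnnc2, 4 in Tnni1, 1 in Tnni3, 1 in Tnnt1 and 4 in Tnnt2, taking the first listed start of Tnni1, which lies inside the gene's span, and of Tnnt2. Of 32851 mouse promoters, 66.2% hold at least 1. CAGCTG, a subset of CANNTG, was found 1 time in Tnni1 and 2 times in Tnnt2, and is held by 13% of promoters. CATTCC, the MCAT core bound by TEAD factors, was found 1 time each in Tnnc1 and Tnnt2 (12.6% of promoters). The MEF2 motif was found in none of the 6 windows (2.92% of promoters), and TATAAA in Tnnt1 alone (12.4%). The window of the second listed start of Tnni1 held 2 CANNTG and 1 CAGCTG. That of the second listed start of Tnnt2 held 1 CANNTG and neither CAGCTG nor CATTCC. Both strands were searched, and a match is a description of letters.

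Genes that work with troponin were counted in lists that held no troponin. Of 30 thin filament partners, 27 were tested, with 4 higher and 16 lower in shPkm1 (median log2 fold change -0.89) and 6 higher and 18 lower under the shPkm2 label (-2.24). Of all genes, 31.8% and 33.9% were called higher and 31.4% and 34.2% lower in these comparisons. Between the hairpin groups 5 of the 27 were higher and 16 lower under the shPkm2 label, where 25.7% of all genes were called higher and 27.3% lower. Acta1, skeletal alpha-actin, was listed at 15317 and 10686 TPM in shScr, 5152 and 5729 in shPkm1, and 82.6 and 79.9 under the shPkm2 label. Its log2 fold change of -7.80 in the latter (SE 0.266, adjusted p = 4.02e-11) was close to that of Tnni1. Actc1, cardiac alpha-actin, had -7.86 (SE 0.388). Tpm4, a tropomyosin of non-muscle cells, rose in both groups, from 177 and 223 TPM to 567 and 514 in shPkm1 (1.05, adjusted p = 3.00e-06) and 729 and 709 under the shPkm2 label (1.40, adjusted p = 1.22e-07). Tmod3, a widely expressed tropomodulin that caps actin filaments, rose by 1.40 and 1.35.

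Of 25 genes of calcium release and reuptake, 23 were tested, with 2 higher and 19 lower in shPkm1 (median -1.43) and 3 higher and 17 lower under the shPkm2 label (-2.40), beside 31.8% higher and 31.4% lower of all genes in shPkm1 and 33.9% and 34.2% under the shPkm2 label. Cacna1s, the voltage sensor of excitation-contraction coupling, was listed at 56.5 and 59.5 TPM in shScr, 15.7 and 16.0 in shPkm1, and 0.390 and 0.330 under the shPkm2 label, a log2 fold change of -7.85 (adjusted p = 2.26e-12). Casq2, a calcium store protein of the sarcoplasmic reticulum, fell by 7.59 under that label. Trdn, the triadin gene, fell in shPkm1 (-2.69, adjusted p = 2.63e-08) and was higher under the shPkm2 label than in shPkm1 (1.43, adjusted p = 9.01e-06).

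Most fast and slow fibre genes fell in both groups, where 31.4% of all genes were called lower in shPkm1 and 34.2% under the shPkm2 label. The 13 fast fibre genes were called lower in shPkm1 (median -1.43), and 12 of 13 under the shPkm2 label (median -6.74, or -5.70 with genes near 0 counts at their bound). Among them, levels of Pvalb, the calcium buffer parvalbumin, overlapped at 8.85 and 34.5 TPM in shScr and 11.2 and 9.56 in shPkm1. Casq1 also overlapped in TPM, at 6.58 and 5.91 in shScr and 5.81 and 6.01 in shPkm1 (-0.47, adjusted p = 0.0475). Mylpf, the fast regulatory myosin light chain, fell by 1.91 in shPkm1, from 14249 and 10408 TPM to 4161 and 4527. Myh4, a fast myosin heavy chain, had 420 and 160 estimated counts in shScr, 51.4 and 66.1 in shPkm1, and 3 and 0 under the shPkm2 label. Of 10 slow fibre genes tested, 8 were lower in shPkm1 (median -1.68) and 9 under the shPkm2 label (median -6.95, or -6.70 at the bounds), where Tpm3, a tropomyosin also made outside muscle, rose by 0.51. Mybpc1, slow myosin-binding protein C, fell by 4.96 in shPkm1. Csrp3, muscle LIM protein, was listed at 50.7 and 51.3 TPM in shScr and 53.2 and 60.01 in shPkm1, and had 3 and 2 counts under the shPkm2 label against 516 and 514 in shScr. All 4 tested cardiac genes were lower in both groups. The cardiac factor genes Gata4 and Nkx2-5 were higher under the shPkm2 label than in shPkm1, by 0.70 and 0.92, while Myl4, the atrial and embryonic myosin light chain, had -2.58 and -7.88 against shScr.

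Another list held factors known to act on troponin promoters, directly or through other proteins. Of 20 tested, 8 were higher and 8 lower in shPkm1 (median -0.04), and 7 higher and 10 lower under the shPkm2 label (-0.28). The list includes the inhibitors Id1, Id2 and Id3, all called higher in both groups. Of all genes, 31.8% were called higher and 31.4% lower in shPkm1 and 33.9% higher and 34.2% lower under the shPkm2 label. Myog, the myogenin gene, was listed at 2126 and 2051 TPM in shScr, 1430 and 1437 in shPkm1, and 67.2 and 73.5 under the shPkm2 label, where it fell by 5.35 (SE 0.154, adjusted p = 1.06e-11). Mef2c, whose product cooperates with myogenic factors, was listed at 5.07 and 1.34 TPM in shScr, 0.960 and 0.950 in shPkm1, and 0.07 and 0.05 under the shPkm2 label, with log2 fold changes of -2.25 (SE 0.477) and -6.02 (SE 0.717). The shScr libraries of Mef2c lay far apart, the second close to shPkm1. Tead4, an MCAT-binding factor, fell by 1.73 in shPkm1. Id2 and Id3, inhibitors of basic helix-loop-helix factors, rose in both groups, Id2 by 1.91 and 2.58 and Id3 by 1.19 and 2.38. Myf5, an early myogenic factor, was higher under the shPkm2 label than in shPkm1 by 1.48 (adjusted p = 6.34e-08). Of 16 tested kinases and phosphatases of the sarcomere, 6 were higher and 8 lower in shPkm1, and 6 higher and 10 lower under the shPkm2 label, beside the same shares of all genes. Prkca, a protein kinase C gene, rose by 1.43 and 1.26, and Camk2a, a calmodulin-dependent kinase gene, fell by 1.78 and 5.56.

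The genes most like each troponin were found as those with the smallest root mean square difference of centred log2 CPM (counts scaled to library size) over the 6 libraries, among 10703 genes. For Tnnc1 they were Myl1 (0.0794), a fast myosin light chain, Nmrk2 (0.149) and Mymk (0.162), the fusion factor myomaker. For Tnnc2 they were Itgb1bp2 (0.0985), Myl4 (0.133) and Pgm5 (0.182). Tnni1 was nearest to Ctrb1 (0.226), Myh1 (0.231) and Acta1 (0.253), and Tnni2 to Apobec2 (0.124), Pgm5 (0.144) and R3hdml (0.154). Tnnt1 was nearest to Ppfia4 (0.134), Fn3k (0.140) and Tmod1 (0.163), Tnnt2 to Smyd1 (0.120), Atp2a1 (0.141) and Casz1 (0.159), and Tnnt3 to Trim72 (0.111), Apobec2 (0.123) and Unc45b (0.139). Tnni3 had other neighbours: Mab21l3 (0.131), Chpt1 (0.133) and Trim25 (0.144). Chpt1, a choline phosphotransferase, stood at 148 and 98.2 CPM in shScr, 34.1 and 27.5 in shPkm1, and 36.9 and 36.3 under the shPkm2 label. Within the family, Tnni2 and Tnnt3 were nearest to each other (0.178), with 5 genes outside the family nearer to Tnni2 and 6 nearer to Tnnt3. Tnni3 was nearest to Tnnt1, at 1.60, with 10011 genes outside the family nearer. The 6 libraries fall into 3 groups, so these values describe the group pattern.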

How the data were processed

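The 6 libraries of C2C12 RNA (2 per group) were analysed from 1 table of transcripts. Per the file headers, the deposited table holds, for each transcript and library, the authors' estimated count of reads (expected count), an FPKM and a TPM value. The submitters' processing notes name HISAT, StringTie, Bowtie, RSEM, DESeq2 and the build mm10, without their roles; versions are not given in the sources used here. The 9 deposited columns of the authors' group means were not used. Counts and TPM were summed per gene, symbols were matched to RefSeq for 17445 of 17558 genes, and counts were rounded. How reads shared by transcripts were split bears on every transcript value, and whether counting used strand is not given.

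The test was edgeR 4.0.16 (R 4.3.3): filterByExpr (10 counts, total 15), TMM factors, 1 quasi-likelihood fit of all 6 libraries, Benjamini-Hochberg adjustment over 12643 genes or 33433 transcripts. Intervals are 95%. The fit was also run on simulated data with fewer and smaller gene changes than those found here, and the outcome is not reported here. Alternatives used DESeq2 1.42.0 and limma 3.58.1 on log2(FPKM + 1) and log2(FPKM + 0.1). Named genes are all members, Pkm, the 3 genes most like each member, neighbours, and up to 2 rises and 2 falls per list with a mean of at least 50 counts. Some results under this rule are not reported here. The members and lists were chosen with earlier results of these data known. Floors and intervals cover counting or fit error only. Exons came from the GENCODE annotation of GRCm38.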

Additional observations from a re-analysis of the deposited data

How the results depend on the processing

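The 24 fold changes of the 8 genes kept their direction and their side of the threshold in all 357 values from the alternatives, 14 or 15 per fold change: other scaling, filters, tools, 2 groups alone, the replicate number as a block, and each library left out. Library totals without a composition factor put the median of all genes at 0.19, 0.33 and 0.14 on the log2 scale (shPkm1 and shPkm2 against shScr, then shPkm2 against shPkm1), and genes called lower in shPkm2 against shScr went from 4319 to 2702, with 2675 and 2709 by limma on log2(FPKM + 1) and log2(FPKM + 0.1). With a minimum mean of 50 counts Tnni3 was not tested. Transcript results were less stable. Leaving out 1 library gave 0 to 23 lower transcripts in shPkm1 (25 with all), 20 to 30 in shPkm2 against shPkm1 (36), and 1 to 3 transcripts with changed isoform use in shPkm2 against shScr (4) and against shPkm1 (2). Changed isoform use in shPkm2 against shPkm1 came to 4 transcripts with library totals and 4 with a minimum mean of 50 counts. The cause was not tested. An arm with 1 library is assumed to vary like the others. On estimated counts in place of TPM, 15 of the 24 paralogue shares moved by more than their SD, and on FPKM none did.

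Same-numbered libraries shared little deviation over all genes, with correlations of -0.03, 0.04 and 0.05. These values cannot tell whether such libraries were handled together. With the replicate block, 11 transcripts were lower in shPkm1 and 2 had changed isoform use in shPkm2 against shScr, and the counts of lower genes stayed at 8, 8 and 7. Tnni3, at 15 to 61 counts, is the member most limited by depth.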
